A study of Homo sapiens with 3 samples.

Results

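Interferon-stimulated genes are the genes that cells switch on when interferon binds its receptors. The 44 members of this set were taken from a list of symbols, as the rows of the deposited count table with that gene name on a chromosome. Of them 32 had 10 or more counts summed over all libraries and are described, out of 67008 gene models in the table. The cells were HEK293T, an established line from human embryonic kidney that also carries SV40 large T antigen. RNA from 3 libraries was poly(A)-selected and sequenced. One library came from cells given the hairpin shDDX24-1 (hairpin 1), one from cells given shDDX24-2 (hairpin 2), both labelled DDX24 knockdown, and one from cells given the pLKO.1 vector (control), labelled WT. Every culture received lentivirus, 5 particles for each cell, with polybrene (8 µg/mL), and the labels give a time of 72 hours, so the control cells carried a lentiviral vector as well. Each hairpin stands for the knockdown with 1 library. Nothing in the labels says that cultures were independent. A p-value here rests on the difference between the hairpin libraries, drawn toward the spread over all genes tested. That difference may be technical and cannot be told apart from a difference between the hairpins themselves.

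Interferons are secreted proteins that act through receptors on the same or neighbouring cells. The receptors activate the JAK kinases, which phosphorylate STAT proteins. Together with IRF9 these proteins, STAT2 among them, form a complex that binds the interferon-stimulated response element in promoters of antiviral genes. Many of the products bind viral RNA, block virus entry or modify proteins, and many of the genes keep a low basal level in cells that have met no interferon. DDX24, the gene the hairpins target, encodes an RNA helicase of the DEAD-box family.

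The libraries held 36738685 counts with hairpin 1, 37828270 with hairpin 2 and 52198744 in the control. DDX24 itself was listed at 0 counts in the hairpin 1, hairpin 2 and control libraries, so the knockdown could not be measured here. It has a further gene model on another scaffold, which was at 0 too. Among protein-coding genes with such a copy 72.2% were at 0 in all libraries, against 15.9% of those without. The 0 of DDX24 therefore cannot be told apart from reads lost between copies. Among genes known from this line, PAX2, NEFL, NEFM, VIM and KRT18 reached 1 CPM in some library, while PAX8 and LHX1 stayed under that level. CPM is the read count scaled to library size, here with TMM factors. Markers of blood cells summed to 3.55 CPM with hairpin 1, 2.32 with hairpin 2 and 2.79 in the control, with CD3E at 0 and 7 of 8 markers under 1 CPM in every library. The 4 markers of plasmacytoid dendritic cells, the main interferon producers in blood, summed to 41.0, 31.7 and 48.6 CPM in the same order, nearly all from TCF4, with IL3RA and GZMB at 0. Those of fibroblasts summed to 35.5, 27.7 and 30.4 CPM and those of endothelium to 1.16, 0.890 and 1.21 CPM. Mitochondrial genes took 4.21% of counts with hairpin 1, 3.79% with hairpin 2 and 3.51% in the control. The part of these differences in the results was not tested.

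The core of the response element is GAAA, any 2 bases, and GAAA again, and this motif was searched on both strands, with overlapping matches kept, in the RefSeq promoter windows (GRCh38.p14, from 250 bases before to 50 bases after a transcript start). Windows were found for 37 members. USP18, IFIT2, OAS2, OASL, MX2, IFITM2 and TRIM22 had none in the table. The motif was in 26 of 52 windows of members, against 1255 of 35116 windows of all genes (3.57%). The longer form, with CT after the last GAAA, was in 16 of the 52 windows (30.8%), against 96 of all windows (0.273%). A match describes the letters and is not a measured binding site.

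The members whose values the results turn on are shown by their match, read in the direction of the motif, with 10 bases on each side and the fixed letters of the motif in capitals. DTX3L and PARP9 share 1 match, and it runs across the start of DTX3L. For DTX3L, SAMD9 and TRIM21 the counting intervals lay below the control with both hairpins. IFI6, IFI44L and IFIT1 are members that differed between the hairpins. EIF2AK2 and IFITM3 were higher with both hairpins, and IFIT5 is the most abundant of the IFIT genes.
DTX3L and PARP9, chr3:122564322-122564351, plus strand: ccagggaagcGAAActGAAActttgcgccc
SAMD9, chr7:93118096-93118125, minus strand: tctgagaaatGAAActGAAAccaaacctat
TRIM21, chr11:4393666-4393695, minus strand: cttctgagcgGAAActGAAAgtgaaatagg
IFI6, chr1:27672266-27672295, minus strand: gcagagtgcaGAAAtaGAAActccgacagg
IFI44L, chr1:78620365-78620394, plus strand: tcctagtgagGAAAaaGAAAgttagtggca
IFIT1, chr10:89392497-89392526, minus strand: accgaaagggGAAAgtGAAActaaagctag
EIF2AK2, chr2:37156967-37156996, minus strand: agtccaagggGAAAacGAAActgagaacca
IFITM3, chr11:320876-320905, minus strand: aaactgttgaGAAAccGAAActactgggga
IFIT5, chr10:89414554-89414583, minus strand: cgagcgctcaGAAActGAAActtaagaaat

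The match of DTX3L begins 6 bases before its start, and the same bases lie 41 bases before a start of PARP9 on the other strand. The whole window of DTX3L is given because 2 members are read from it in opposite directions, and those of SAMD9 and IFI6 because these members were low with both hairpins and with hairpin 2 alone. Capitals mark the fixed letters of each match on either strand.
DTX3L, chr3:122564088-122564387, plus strand: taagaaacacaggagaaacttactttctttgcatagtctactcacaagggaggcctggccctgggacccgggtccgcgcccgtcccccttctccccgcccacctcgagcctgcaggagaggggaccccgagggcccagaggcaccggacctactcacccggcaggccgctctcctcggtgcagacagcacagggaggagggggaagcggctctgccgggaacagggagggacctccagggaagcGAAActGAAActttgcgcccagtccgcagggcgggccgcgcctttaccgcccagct
SAMD9, chr7:93117930-93118229, minus strand: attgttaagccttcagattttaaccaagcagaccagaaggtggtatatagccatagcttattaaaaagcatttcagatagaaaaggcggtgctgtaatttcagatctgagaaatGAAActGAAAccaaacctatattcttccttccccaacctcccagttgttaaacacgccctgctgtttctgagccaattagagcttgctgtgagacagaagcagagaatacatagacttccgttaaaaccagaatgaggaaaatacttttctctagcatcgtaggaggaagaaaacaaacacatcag
IFI6, chr1:27672143-27672442, minus strand: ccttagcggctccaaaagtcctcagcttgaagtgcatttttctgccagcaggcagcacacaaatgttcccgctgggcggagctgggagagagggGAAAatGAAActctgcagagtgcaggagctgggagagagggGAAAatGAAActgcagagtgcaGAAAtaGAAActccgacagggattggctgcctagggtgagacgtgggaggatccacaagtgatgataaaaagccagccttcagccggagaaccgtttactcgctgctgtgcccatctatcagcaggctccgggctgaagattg

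The window of IFI6 holds 3 matches. UBE2L6 had none in either of its windows, and IFI44L had 2 whose surrounding 30 bases are identical. The motif was found for 8 of 12 described members that were lower with both hairpins and have a window, and for 11 of 16 other described members.

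**Figure D1:**
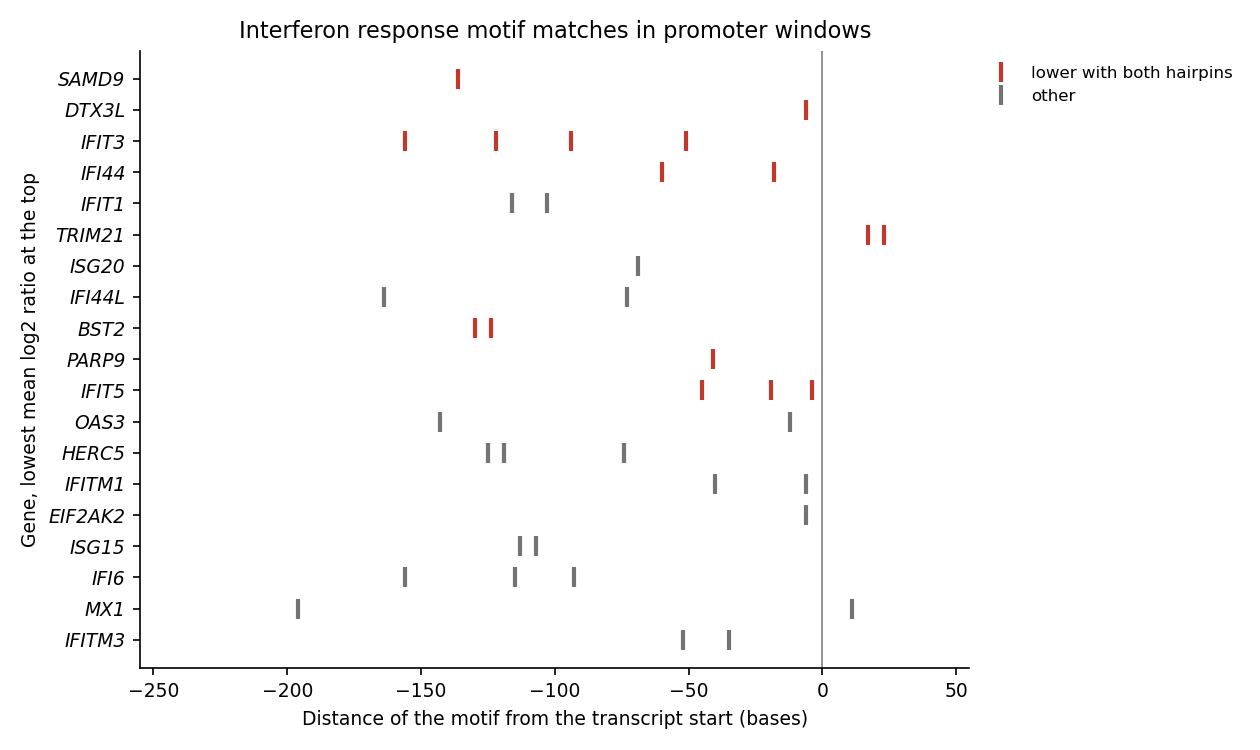
Position of each response element match (bars) in the promoter windows of 19 described members, in bases from the transcript start on the x axis, with genes ordered by their mean log2 ratio over both hairpins, lowest at the top. Red marks members lower with both hairpins than in the control and grey the others, and a gene with several starts has bars from each window. Matches lie on both sides of the order, from SAMD9 at the top to IFITM3 at the bottom.

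Levels were low for most members. Of the 32 described, 26 were under 20 CPM in every library. ADAR, the enzyme that edits adenosines in double-stranded RNA, was at 475 CPM with hairpin 1, 521 with hairpin 2 and 482 in the control. ZC3HAV1, the zinc finger antiviral protein, was at 140 and 146 CPM with hairpin 1 and hairpin 2 and at 150 in the control. EIF2AK2, the kinase PKR that halts translation on double-stranded RNA, was at 114 and 126 CPM with the hairpins and 108 in the control. These 3 genes made up 74.4% of the summed CPM of described members with hairpin 1, 78.5% with hairpin 2 and 75.2% in the control. Per kilobase of the longest coding transcript ADAR also led the control library, at 72.0 CPM per kb, ahead of ZC3HAV1 at 21.1 and IFITM2 at 13.6. On that scale the described members had a median of 2.14 CPM per kb with hairpin 1, 2.36 with hairpin 2 and 2.32 in the control.

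Of the 12 members not described, 5 had few counts. SAMD9L, the paralog of SAMD9, had 4, 0 and 5 counts with hairpin 1, with hairpin 2 and in the control. TRIM22, a ubiquitin ligase, had 1, 1 and 5. MX2 and XAF1 had 1, 0 and 1 each, and RSAD2, known as viperin, had 0, 0 and 1. The other 7, IRF9, OAS1, OAS2, PARP14, PSMB8, PSMB9 and TAP1, were listed at 0 in every library. A count of 0 allows up to 0.0817 CPM with hairpin 1, 0.0793 with hairpin 2 and 0.0575 in the control, for counting error only. IRF9, PSMB8, PSMB9 and TAP1 have further gene models on alternate scaffolds, and these were at 0 too. Among protein-coding genes with such a copy 72.2% were at 0 in all libraries, against 15.9% of those without, so a 0 for these 4 members cannot be told apart from reads lost between copies.

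**Figure D2:**
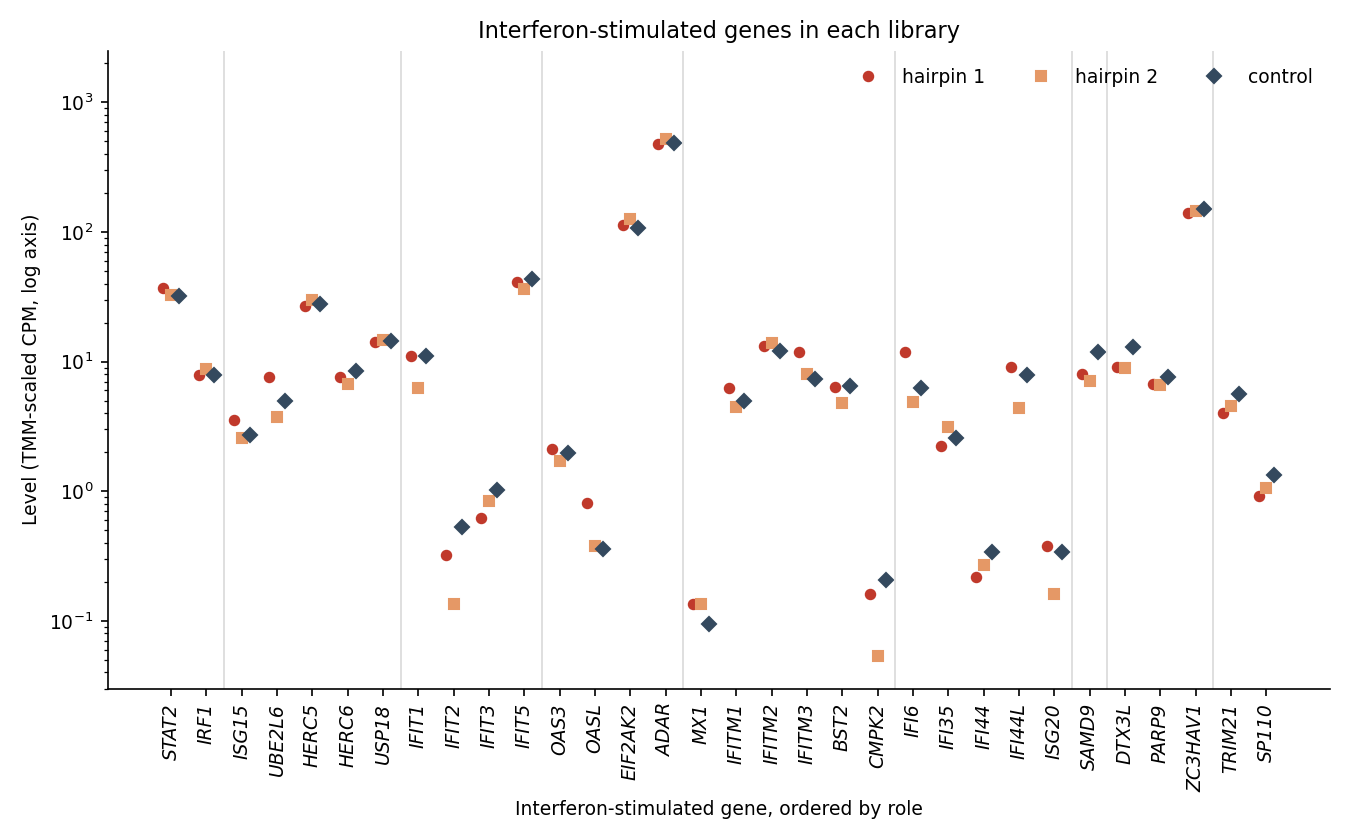
Level of each described member (TMM-scaled CPM, log axis) in the hairpin 1, hairpin 2 and control libraries, 1 point per library, with genes grouped by role between grey lines. ADAR, ZC3HAV1 and EIF2AK2 stand above 100 CPM in all libraries, most other members lie under 20, and MX1 and CMPK2 are near 0.1.

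No member passed the test of knockdown against control. edgeR's quasi-likelihood test, with Benjamini-Hochberg adjustment over 17713 genes and a threshold of 0.05, was applied to 30 members, and the lowest adjusted p among them was 0.999. In the whole table it called 2 genes lower (0.0113%) and 0 higher (0.0%). At an unadjusted p under 0.05, 3 members were lower, SAMD9, DTX3L and IFIT2, against 2.53% of all genes tested, and 0 were higher, against 1.37%. DESeq2 and limma-voom also called 0 members, with 1 and 2 at an unadjusted p under 0.05. For these methods the share of all genes under that p is not given here. The residual spread has 1 degree of freedom, the difference between the hairpins, so the values are given below by hairpin. MX1 and CMPK2 did not pass the filter on low counts and have no test.

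By direction alone, 13 of 32 members were lower with both hairpins than in the control (32.0% of all genes tested) and 6 were higher with both (31.9%). Among all genes tested under 20 CPM in every library these shares were 34.8% and 29.6%. Of the 30 members that were tested, 12 were lower and 5 higher with both. Both hairpins are set against the same control library, so the directions are not independent. Over members the hairpin 1 ratios had a median of -0.02 on the log2 scale, against 0.0025 over all genes tested, and the hairpin 2 ratios a median of -0.23, against -0.0040. Over genes tested under 20 CPM these medians were 0.018 and -0.068. At least 1.5-fold lower with hairpin 1 were 2 members, IFIT2 and IFIT3 (5.3% of all genes), and 4 were as much higher, UBE2L6, OASL, IFITM3 and IFI6 (4.54%). With hairpin 2 the count was 6 lower, IFIT1, IFIT2, CMPK2, IFI44L, ISG20 and SAMD9 (8.63%), and 0 higher (3.52%). Without CMPK2, which was not tested, 5 were lower. Among genes tested under 20 CPM, 14.4% were that much lower with hairpin 2 and 8.22% that much higher with hairpin 1. Only IFIT2 was at least 1.5-fold lower with both (2.5%), and 0 members were higher with both (1.28%).

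**Figure D3:**
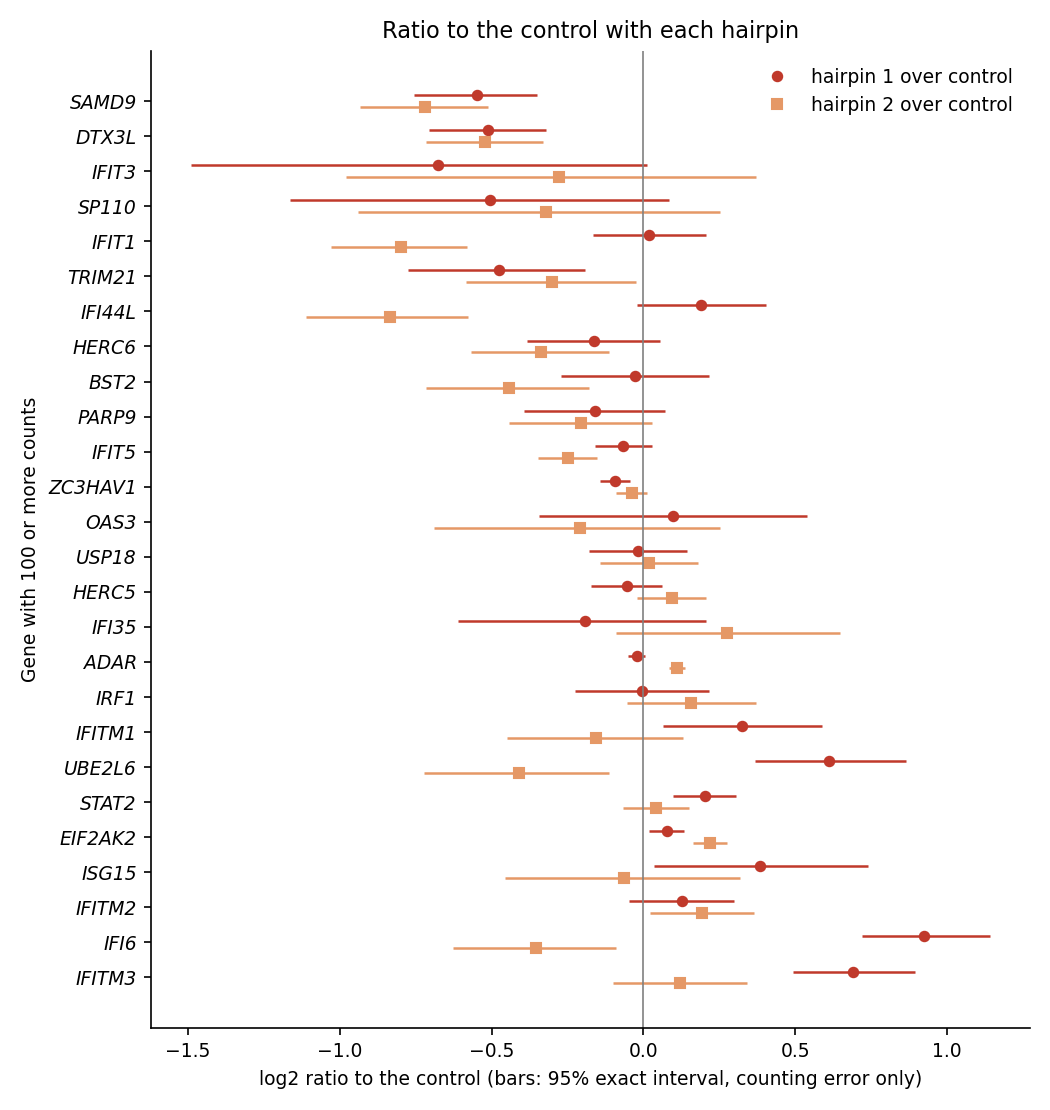
Log2 ratio to the control with hairpin 1 (circles) and hairpin 2 (squares) for members with 100 or more summed counts, with 95% exact intervals that cover counting error only. For SAMD9, DTX3L and TRIM21 both intervals lie below 0. For UBE2L6 and IFI6 the hairpin 1 interval lies above 0 and the hairpin 2 interval below it.

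Among the members low with both hairpins, SAMD9 and DTX3L had the lowest unadjusted p. SAMD9, a cytoplasmic antiviral and growth-restraining protein (ENSG00000205413.8, chromosome 7, 93099513 to 93118023, minus strand), had 297 counts with hairpin 1, 265 with hairpin 2 and 622 in the control. That is 8.04 and 7.15 CPM with the hairpins, against 11.8 in the control. Both hairpin libraries were below the control and close to each other. The log2 ratio was -0.55 with hairpin 1 (95% exact interval -0.76 to -0.35) and -0.72 with hairpin 2 (-0.93 to -0.51). The log2 fold change of SAMD9 over the group was -0.63 ± 0.20 (SE, n = 2 against 1) with an unadjusted edgeR p of 0.018, which did not pass after adjustment (edgeR adjusted p = 0.999).

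DTX3L, a ubiquitin ligase (ENSG00000163840.10, chromosome 3, 122564338 to 122575203, plus strand), acts as a complex with PARP9, a macrodomain protein of the ADP-ribosyltransferase family. It had 334, 333 and 681 counts with hairpin 1, with hairpin 2 and in the control, or 9.04, 8.98 and 12.9 CPM. The hairpin libraries were nearly equal and both under the control, with log2 ratios of -0.51 (-0.71 to -0.32) and -0.52 (-0.72 to -0.33). The log2 difference was -0.52 ± 0.19 (SE; edgeR adjusted p = 0.999, unadjusted p = 0.030). PARP9 (ENSG00000138496.16, chromosome 3, 122527924 to 122564577, minus strand) was at 6.77 and 6.55 CPM with the hairpins and 7.56 in the control. Its log2 ratios were -0.16 and -0.20, and both intervals included 0. DTX3L had 1.34 counts for each PARP9 count with hairpin 1, 1.37 with hairpin 2 and 1.71 in the control. The gene models overlap by 240 bases on opposite strands, and the strand setting of the counting is unknown, so reads in that stretch cannot be assigned with certainty.

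TRIM21, a cytosolic antibody receptor and ubiquitin ligase, was at 4.01 and 4.53 CPM with hairpin 1 and hairpin 2 and at 5.59 in the control. Its log2 ratios were -0.48 (-0.78 to -0.19) and -0.30 (-0.59 to -0.02), and its edgeR adjusted p was 0.999. SP110, a nuclear body protein, had 34 and 39 counts with the hairpins and 70 in the control, with log2 ratios of -0.51 and -0.32 whose intervals both included 0. ZC3HAV1 had log2 ratios of -0.09 (-0.14 to -0.04) and -0.04 (-0.09 to 0.01), a small difference at a high count. PARP14 from the same chromosome 3 cluster as DTX3L was listed at 0.

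Of the 4 IFIT genes, whose proteins bind the ends of foreign RNA, 3 were lower with both hairpins, against 32.0% of all genes tested, and the family median log2 ratio was -0.35 with hairpin 1 and -0.54 with hairpin 2. IFIT5 was at 41.1 and 36.2 CPM with hairpin 1 and hairpin 2 and 43.1 in the control, with log2 ratios of -0.07 and -0.25. IFIT1 was at 11.1 CPM with hairpin 1, 6.29 with hairpin 2 and 11.0 in the control. Thus IFIT1 was at the control level with hairpin 1 (log2 ratio 0.02, -0.17 to 0.20) and below it with hairpin 2 (-0.80, -1.03 to -0.58). IFIT2 had 12, 5 and 28 counts with hairpin 1, with hairpin 2 and in the control. On the log2 scale IFIT2 differed by -1.20 ± 0.44 (SE; edgeR adjusted p = 0.999, unadjusted p = 0.031), at a level where the hairpin 1 interval still included 0. IFIT3 had 23, 31 and 54 counts, and both of its intervals included 0. The models of IFIT1, IFIT2 and IFIT3 overlap that of LIPA on the opposite strand, which had 16997 counts over all libraries. Any reads that fall in exons of both cannot be assigned without the strand setting. Whether exons overlap was not checked.

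HERC6, a HECT-type ligase, was at 7.61 and 6.74 CPM with the hairpins and 8.53 in the control, with log2 ratios of -0.16 and -0.34 (-0.57 to -0.11 with hairpin 2). BST2, the tether that holds budding virus at the cell surface, was at 6.42 and 4.80 CPM against 6.54, and its log2 ratio was -0.03 with hairpin 1 and -0.44 (-0.71 to -0.18) with hairpin 2. The other members low with both hairpins had few counts. IFI44, an interferon-induced protein gene, had 8, 10 and 18 counts with hairpin 1, with hairpin 2 and in the control, and CMPK2, a mitochondrial nucleotide kinase, had 6, 2 and 11. At these counts no difference was detectable.

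Members high with both hairpins were 6: EIF2AK2, STAT2, IFITM2, IFITM3, OASL and MX1. For all of them but EIF2AK2 the counting interval of at least 1 hairpin included 0. The log2 ratios of EIF2AK2 were 0.08 (0.02 to 0.13) and 0.22 (0.16 to 0.28) with hairpin 1 and hairpin 2, and both counting intervals lay above 0. The EIF2AK2 gene model overlaps GPATCH11 on the opposite strand, which had 6865 counts over all libraries. Any reads in exons of both cannot be assigned without the strand setting, and exon overlap was not checked for this pair either. The group difference of EIF2AK2 was 0.15 ± 0.14 on the log2 scale (SE; edgeR adjusted p = 0.999). STAT2, which carries the transactivation domain of the interferon complex, was at 36.7 and 32.8 CPM with hairpin 1 and hairpin 2 and at 31.9 in the control. IFITM2, IFITM3 and IFITM1 encode small membrane proteins that block virus fusion. IFITM2 was at 13.2 and 13.9 CPM against 12.1 in the control, and IFITM3 at 11.9 and 8.04 against 7.39. The IFITM3 ratio was away from 0 with hairpin 1 (0.69, 0.49 to 0.89) and not with hairpin 2 (0.12, -0.10 to 0.34). The IFITM2 model overlaps IFITM1 on the same strand, and the family is similar in sequence, so reads may be divided among them. OASL, a synthetase-like protein without enzyme activity, had 30, 14 and 19 counts, and MX1, a dynamin-like GTPase and classic interferon marker, had 5 in each library. With equal counts, MX1 was higher in CPM with the hairpins only because the control library was larger.

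The hairpin libraries were also set against each other. At least 1.5-fold lower with hairpin 2 than with hairpin 1 were 8 of 32 members, UBE2L6, IFIT1, IFIT2, OASL, CMPK2, IFI6, IFI44L and ISG20, against 8.51% of all genes tested and 14.2% of those under 20 CPM. Without CMPK2, which was not tested, 7 were that much lower. Higher by that fold with hairpin 2 were 0, against 4.12%. The median log2 ratio of hairpin 2 to hairpin 1 was -0.16 over members and -0.0048 over all genes tested, and -0.086 over those under 20 CPM. There is 1 library per hairpin, so these are values without a replicate check, and the control plays no part in them.

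IFI6, a mitochondrial and endoplasmic reticulum protein, had 181 counts with hairpin 2, 440 with hairpin 1 and 330 in the control. In CPM it was at 4.88 with hairpin 2, 11.9 with hairpin 1 and 6.25 in the control. The control lay between the hairpins. The log2 ratio of IFI6 to the control was -0.35 (-0.63 to -0.09) with hairpin 2 and 0.92 (0.72 to 1.14) with hairpin 1, and the ratio between the hairpins was -1.28. UBE2L6, the E2 enzyme that attaches ISG15 to proteins, was at 3.72 CPM with hairpin 2, 7.61 with hairpin 1 and 4.97 in the control. Its log2 ratio to the control was -0.41 (-0.72 to -0.11) with hairpin 2 and 0.61 (0.37 to 0.86) with hairpin 1. ISG15 itself, the ubiquitin-like modifier, was at 2.59 CPM with hairpin 2, 3.55 with hairpin 1 and 2.71 in the control, and only the hairpin 1 interval lay above 0 (0.03 to 0.74).

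IFI44L, a paralog of IFI44, was at 4.42 CPM with hairpin 2, 9.04 with hairpin 1 and 7.92 in the control. Its log2 ratio was -0.83 (-1.11 to -0.58) with hairpin 2 and 0.19 (-0.02 to 0.40) with hairpin 1. ISG20, an RNA exonuclease, had 6 counts with hairpin 2, 14 with hairpin 1 and 18 in the control, too few to show a difference. IFITM1 was at 4.45 CPM with hairpin 2, 6.23 with hairpin 1 and 4.97 in the control.

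The ligase and the protease of the ISG15 system lay near the control with both hairpins. HERC5, the main ligase for ISG15, was at 26.9 and 29.8 CPM with hairpin 1 and hairpin 2 and at 28.0 in the control. USP18, the protease that removes ISG15 and blocks the receptor, was at 14.3 and 14.6 CPM against 14.4. Their log2 ratios were -0.06 and 0.09 for HERC5 and -0.02 and 0.02 for USP18, with intervals that included 0. The remaining members, IRF1, OAS3, IFI35 and ADAR, had log2 ratios of opposite sign with the hairpins. IRF1, a transcription factor of interferon gamma response, was at 7.88 and 8.82 CPM against 7.90, OAS3, a synthetase that activates RNase L, at 2.11 and 1.70 against 1.97, and IFI35 at 2.25 and 3.13 against 2.58. All intervals of IRF1, OAS3 and IFI35 included 0. ADAR had log2 ratios of -0.02 (-0.05 to 0.01) and 0.11 (0.08 to 0.14).

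**Figure D4:**
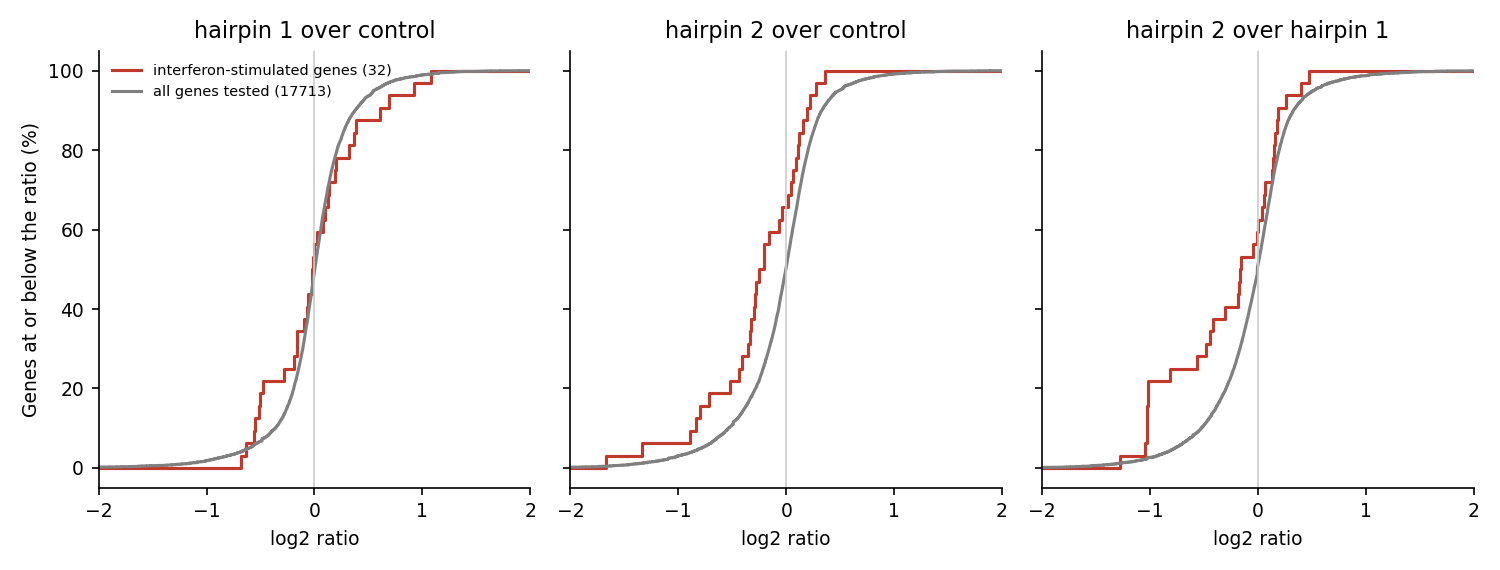
Share of genes at or below each log2 ratio for the 32 described members (red) and all 17713 genes tested (grey), for hairpin 1 over control, hairpin 2 over control and hairpin 2 over hairpin 1. The member curve runs along the grey one with hairpin 1 and lies to its left with hairpin 2 (median -0.23) and between the hairpins (median -0.16). Genes tested under 20 CPM, not drawn, had medians of -0.068 and -0.086 in these last comparisons.

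Upstream of these genes, the interferons themselves were almost unread. Of 21 ligand genes 6 had any count, none more than 4 in a library, and all of them together had 1 count with hairpin 1, 8 with hairpin 2 and 6 in the control. The receptor chains of type I interferon were both read. IFNAR1 was at 113 and 125 CPM with hairpin 1 and hairpin 2 and at 129 in the control, and IFNAR2 at 6.69 and 3.67 against 5.00. Both hairpins were below the control for 3 of 6 receptor genes and above it for 1, against 32.0% and 31.9% of all genes tested, with median log2 ratios of -0.22 with hairpin 1 and -0.08 with hairpin 2. IFNGR1, a chain of the interferon gamma receptor, was at 78.4 and 87.3 CPM against 94.0. IL10RB, a chain shared by receptors for interferon lambda, had 28 and 29 counts against 48, and IFNLR1, its partner, was at 16.0 and 15.5 CPM against 15.4.

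In the relay from receptor to nucleus, both hairpins were below the control for 3 of 13 genes and above it for 3, against the same 32.0% and 31.9% of all genes, with medians of -0.03 and 0.08. JAK2, a receptor-bound kinase, was at 8.39 and 7.90 CPM with hairpin 1 and hairpin 2 and at 6.94 in the control. CISH, a STAT-induced inhibitor of cytokine receptors, was at 4.36 and 5.13 CPM against 3.34, and PTPN6, a phosphatase, at 2.41 and 2.89 against 3.18.

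Sensors and inducers of interferon had 5 of 10 described genes lower and 2 higher with both hairpins, against 32.0% and 31.9% of all genes tested, with medians of -0.06 and -0.19. DDX58, the RNA sensor RIG-I, was at 5.36 and 4.56 CPM with hairpin 1 and hairpin 2 and 6.22 in the control. TLR3, an endosomal sensor of double-stranded RNA, had 36 and 30 counts against 64. IRF3, a transcription factor that induces interferon, was at 63.1 and 61.7 CPM against 56.0, and TICAM1, the adaptor of TLR3, at 3.03 and 2.81 against 2.33. IFIH1, the RNA sensor MDA5, had 31 counts with hairpin 2, 60 with hairpin 1 and 59 in the control, and DHX58, a related helicase, had 12, 25 and 27 in the same libraries, both named after their values were seen.

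A further list of 53 interferon-stimulated genes outside the members had 36 described. Both hairpins were below the control for 17 of them (47.2%, against 32.0% of all genes tested) and above it for 6 (16.7%, against 31.9%). The medians were -0.04 with hairpin 1 and -0.14 with hairpin 2. EPSTI1, an epithelial stromal interaction gene, had 29 and 19 counts with hairpin 1 and hairpin 2 and 61 in the control, for a log2 fold change of -0.83 ± 0.38 (SE; edgeR adjusted p = 0.999). TRIM5, a restriction factor that binds retroviral capsids, was at 6.01 and 4.94 CPM against 7.05. SAMHD1, a dNTP hydrolase that limits retroviruses, was at 92.7 and 92.9 CPM against 105, and CNP at 107 and 111 against 125. At least 1.5-fold lower with hairpin 2 than with hairpin 1 were 4 of the 36 (11.1%), GBP2, NLRC5, SHFL and SLFN5, against 8.51% of all genes tested and 14.2% of those under 20 CPM. By that fold 0 were higher, against 4.12% of all genes.

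Antigen presentation genes, which respond mainly to interferon gamma, had 3 of 9 described lower and 3 higher with both hairpins, against 32.0% and 31.9% of all genes tested. TAP2, a peptide transporter chain, had 68 and 53 counts with hairpin 1 and hairpin 2 and 61 in the control, or 1.84, 1.43 and 1.16 CPM. ERAP1, a peptide-trimming enzyme, was at 7.28 and 8.85 CPM against 5.86. B2M, the light chain of class I molecules, was at 29.4 and 26.6 CPM against 31.7, and CALR, a chaperone of that pathway, at 663 and 735 against 777. None of the genes in these lists passed edgeR's test, and at an unadjusted p under 0.05 there were 2, GBP1 and GBP2, both lower. GBP1 had 7 and 10 counts with the hairpins against 32 in the control, and GBP2 4 and 1 against 16; both are named after their values were seen.

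**Figure D5:**
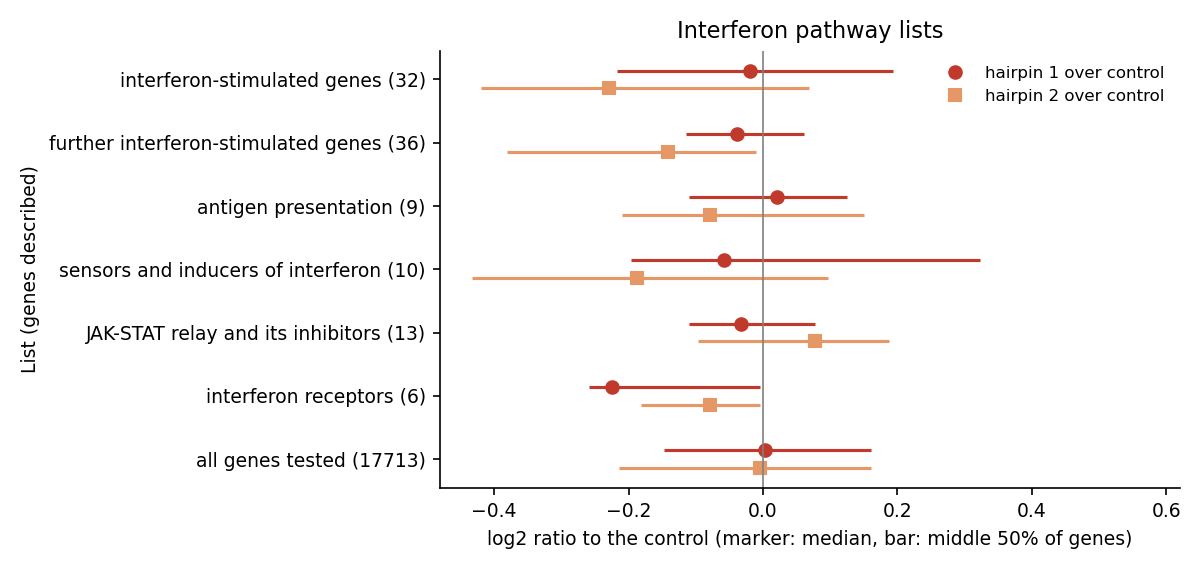
Median log2 ratio to the control (markers) and interquartile range (bars) with hairpin 1 and hairpin 2 for the interferon-stimulated genes, the other pathway lists and all genes tested, with the number of genes in brackets. The interferon-stimulated genes have medians of -0.02 and -0.23, and the receptors and the JAK-STAT relay have the lower median with hairpin 1.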

How the data were processed

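The authors deposited whole-number read counts per gene model, not normalized. The submitters' processing notes list STAR 2.7.3a, DESeq2 1.26 and GRCh38. The sources used here do not name the read counter, strand setting or annotation release, and its treatment of reads with several matches affects genes with copies or overlaps. filterByExpr (minimum count 10) kept 17713 genes, which were TMM-scaled and tested with edgeR 4.0.16 (quasi-likelihood, legacy = FALSE) in R 4.3.3. Each standard error is the absolute log2 fold change over the root of F. The single control library is assumed to vary like the hairpin libraries. A prior count of 2 went into log2 ratios between libraries. Their 95% Clopper-Pearson intervals had no prior, and these and the limit of 3 counts for a 0 cover counting error only. Lengths came from GENCODE transcripts.

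The members, the lists and the rule for named genes were chosen with earlier results of these data known, so no direction here is independent support. The rule takes the 12 described members with the largest smaller ratio of the same sign with both hairpins, the 6 most different between hairpins, the 6 most abundant, and up to 4 genes per list. Of the list genes, 2 were found through an older symbol. In simulated counts for the knockdown comparison (17284 genes), edgeR recovered 97% of 2-fold and 100% of 4-fold changes, with 2 false calls. Every simulated gene had the same dispersion and the same mean level with both hairpins, and the changed genes were well expressed. Real recovery can therefore be lower. Alternatives were other scalings, filters, priors and folds, DESeq2 1.42.0, limma 3.58.1 with voom, and leaving out each hairpin. Added after the data were seen were removal of a loess trend on GC and length, and sets without the most abundant or the overlapping members. Some genes of the marker and pathway lists are not reported here.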

Additional observations from a re-analysis of the deposited data

Results flagged for a closer look

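IFI6 and UBE2L6 had counting intervals on opposite sides of the control with the hairpins. The log2 ratio of hairpin 2 to hairpin 1 was -1.28 for IFI6 and -1.02 for UBE2L6. With 1 library per hairpin the difference was not tested against the spread between cultures.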

How the results depend on the processing

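No member was called by edgeR, DESeq2 or limma-voom under any setting run, including an adjusted p under 0.1. Counts by direction stayed within 1.5 times, and member medians within the spread between the hairpins, under both other scalings, with 100 or more counts and after removal of the GC and length trend. Members at least 1.5-fold lower numbered 2 with hairpin 1 and 6 with hairpin 2, against 5.3% and 8.63% of all genes tested. With 100 or more counts they were 1 and 3, at a fold of 2 they were 0 and 2, and at the smallest fold tried they were 7 and 11. The shares of all genes at these settings are not given here, so these counts cannot be set against them. Over the 16 members that overlap no other model with counts, those at least 1.5-fold lower numbered 0 and 3. In that set 6 members were lower and 2 higher with both hairpins. IFIT2 and IFIT3, the only members that much lower with hairpin 1, overlap LIPA and were left out of it. With library totals 0 receptor genes were higher with both hairpins. With 1 hairpin left out, medians were -0.14 to -0.038 for the further list and -0.19 to -0.058 for the sensors. Among the 20 named members tested, leaving out 1 hairpin turned the direction of 6. The range was -0.35 to 0.92 for IFI6, -0.89 to 0.13 for ISG20 and -0.83 to 0.19 for IFI44L. It was -0.41 to 0.61 for UBE2L6, -0.022 to 0.11 for ADAR and -0.056 to 0.093 for HERC5. Leaving out 1 hairpin only gives the ratio of the other. Members were named in part by whether the hairpins had the same sign, so the count of 6 depends on that rule. Of the 32 described members 13 were neither lower nor higher with both hairpins, against 6399 of 17713 genes tested. HERC5 was at -0.0066 with library totals, against 0.020 with TMM. The other named members tested were also lower with library totals, such as ADAR at 0.019 against 0.046 and SAMD9 at -0.66 against -0.63. The cause was not tested. No paired analysis was possible because the control is 1 library and the groups share fewer than 2 replicate numbers.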
